A study of Mus musculus with 6 samples.

Results

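A set of 8 genes of the cholesterol synthesis pathway was followed in the prefrontal cortex of young mice that carried a mutated Cyfip2 allele and of wild-type mice. The members were Hmgcs1, Sqle, Fdft1, Idi1, Lss, Cyp51, Msmo1 and Srebf2, taken by symbol from the GENCODE M21 annotation on GRCm38, whose coordinates are used for genes, and all 8 were found among the 17889 genes of the deposited table. Messenger RNA was sequenced in 3 samples labelled Hetero, with the genotype given as Cyfip2 mutant, and in 3 wild-type (WT) samples, all of strain C57BL/6J at postnatal day 28. The labels do not give the part of Cyfip2 that is mutated, the sex, or whether the samples came from separate animals, and p-values therefore speak only of the variation among these 6 libraries, part of which may be technical. Values are normalized counts, which the authors had scaled between samples. A level below is a normalized count, and a log2 change is Hetero minus WT on log2(normalized count + 1).

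Brain cholesterol is made locally, because lipoproteins of the blood do not cross the blood-brain barrier. Acetyl-CoA is built up through mevalonate and isoprenoid diphosphates to squalene, which is closed to lanosterol and then trimmed to cholesterol. The transcription factor SREBP-2, the product of Srebf2, is held in the endoplasmic reticulum while sterols are plentiful. When sterols fall it is cut free and switches on the enzymes of the pathway, so its targets are known for rising and falling together. In the young cortex oligodendrocytes that lay down myelin and astrocytes that supply neurons are the main producers.

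Promoter sequences were matched for 6 of the 8 members, all but Sqle and Fdft1. The 250 bases before the RefSeq gene start were searched on both strands for TCACCCCA, a core of the sterol regulatory element bound by SREBP, for CCAAT, the site of NF-Y, for GGGCGG, a GC box, and for CACGTG, an E-box. The core TCACCCCA was found in Hmgcs1, at position -137 from the RefSeq start, and in Srebf2, at position -162. It was found in 1.34% of the 32851 mouse promoters of the same length. CCAAT was found in 6 of the 6 members, against 33.8% of all promoters, and the GC box in 6 of the 6, against 32.7%. CACGTG was found in 0 of the 6, against 6.02% of all promoters. A match is a description of the letters, not a site. The 4 promoters below are those of the member with the highest level per length, of the regulator, of the member with the widest range over samples and of the member that departed most from the others. They are from RefSeq on GRCm38.p6, read 5′ to 3′ on the strand of the gene, with matches in capitals. The RefSeq start lies 28 bases before the GENCODE start for Hmgcs1 and 88, 17 and 49 bases after it for Srebf2, Lss and Cyp51, and each sequence is printed as far as the first of the starts. Hmgcs1 is on the plus strand of chr13:119690101-119690350, Srebf2 on the plus strand of chr15:82147019-82147180, Lss on the plus strand of chr10:76531355-76531587 and Cyp51 on the minus strand of chr5:4104747-4104947. Some matches lie past the printed ends, among them the CCAAT of Cyp51. For Idi1 and Msmo1 the RefSeq start lies 105 and 214 bases after the GENCODE start, so most of the Msmo1 window is inside the GENCODE gene. All CCAAT and GC box matches of Idi1 and Msmo1 lie inside the GENCODE gene, so the counts of 6 include matches that are not before both starts.
Hmgcs1: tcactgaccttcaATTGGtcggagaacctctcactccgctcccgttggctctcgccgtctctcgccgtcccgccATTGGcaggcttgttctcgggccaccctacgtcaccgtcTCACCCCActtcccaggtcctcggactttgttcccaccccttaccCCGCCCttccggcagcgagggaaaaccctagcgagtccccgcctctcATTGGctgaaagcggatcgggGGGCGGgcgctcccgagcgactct
Srebf2: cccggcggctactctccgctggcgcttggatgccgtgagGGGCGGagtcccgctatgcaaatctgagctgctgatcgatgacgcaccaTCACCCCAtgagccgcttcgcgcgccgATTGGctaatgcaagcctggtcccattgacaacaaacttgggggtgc
Lss: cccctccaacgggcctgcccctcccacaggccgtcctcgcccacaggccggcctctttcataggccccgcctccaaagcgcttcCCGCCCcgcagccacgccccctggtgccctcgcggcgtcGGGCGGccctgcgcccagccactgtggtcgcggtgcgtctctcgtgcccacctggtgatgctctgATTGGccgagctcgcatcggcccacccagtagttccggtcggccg
Cyp51: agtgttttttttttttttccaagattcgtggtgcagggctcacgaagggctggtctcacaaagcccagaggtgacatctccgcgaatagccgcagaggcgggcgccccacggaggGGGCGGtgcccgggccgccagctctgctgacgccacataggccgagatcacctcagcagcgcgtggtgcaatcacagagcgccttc

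The mutated gene served as the check of the labels. Cyfip2, a subunit of the WAVE complex that links Rac to actin assembly, read 20959, 21237 and 18285 in the Hetero samples, against 31933, 30496 and 27503 in the WT samples. The groups did not overlap, and the log2 change was -0.57 ± 0.07 (SE). The limma p of Cyfip2, 2.08e-05 unadjusted, was the smallest of the 14969 genes tested. With Benjamini-Hochberg adjustment over these genes the limma p was 0.312, so Cyfip2 did not pass. Column totals were close, 29879143 to 30735443, after the authors' scaling. The spacing of low values gave an estimated 25500000 to 43900000 reads per library, with Hetero sample 3 the deepest, and WT sample 3, WT sample 2 and Hetero sample 1 close together as the shallowest. The cortical marker Slc17a7, the vesicular glutamate transporter of cortical neurons, read 51008 to 54123 in Hetero and 54478 to 58032 in WT. Its groups did not overlap, with Hetero lower, where 4.32% of all tested genes were so separated. Of the 8 neuron markers, Slc17a7 among them, 2 did not overlap with Hetero lower and 2 with Hetero higher, and 0 passed. The choroid plexus marker Ttr read 11 to 43 in Hetero and 4 to 27 in WT.

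Per kilobase of the longest protein-coding transcript, Hmgcs1 stood highest, with 2594 to 3287 normalized counts per kilobase over the 6 samples. Srebf2 was next with 1406 to 1575 and then Msmo1 with 1010 to 1328, and the ranges of these 3 genes did not overlap. Fdft1 (708.3 to 867.3) and Sqle (667.3 to 807.0) overlapped and could not be ordered beyond their spread between samples. The ranges of Cyp51 (572.3 to 630.4) and Idi1 (501.0 to 593.8) overlapped as well, but within every sample Cyp51 stood above Idi1. Lss was lowest, with 307.9 to 487.9 per kilobase. Counted per kilobase of all annotated exons of the gene, Hmgcs1, Srebf2 and Lss kept these ranks, while Msmo1 came to rank 6 and Sqle to rank 7.

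None of the 8 members passed the test between Hetero and WT. In limma 0 of the 8 had an adjusted p under 0.05, where 0% of all tested genes did, and 0 of the 8 had an unadjusted p under 0.05, where 3.83% of all tested genes did. The members' adjusted p was 1 in each case. Fitted values were lower in Hetero for 7 of the 8 members, with a median log2 change of -0.04, beside 50.9% lower and a median of -0.0019 over all tested genes. This became 4 lower and 4 higher without WT sample 2, with a median of -0.0047. In the fit of all 6 samples 9 of 9 mitochondrially encoded messages, 8 of 8 markers of oligodendrocyte precursors and 6 of 6 of microglia had lower values in Hetero. So did 9 of 12 myelin and oligodendrocyte markers, 6 of 8 astrocyte and 4 of 8 neuron markers. It was 3 of 6 for endothelial, 1 of 6 for meningeal and 0 of 2 for choroid plexus markers. The part of these genes in the members' values was not tested. The groups did not overlap for 1 of the 8, Hmgcs1, which was lower in Hetero. Over all tested genes 4.32% were separated in that direction, 4.4% in the other and 8.72% in either. Without WT sample 2 the groups did not overlap for 3 members: Hmgcs1 with Hetero lower, where 7.95% of all tested genes were so separated, and Fdft1 and Msmo1 with Hetero higher, where 8.29% were (16.2% in either direction). The exact two-sided permutation test over the 20 assignments of 3 against 3 samples cannot go below 0.1.

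The early enzymes make the isoprenoid building blocks. Hmgcs1 (ENSMUSG00000093930, chromosome 13, 119690379 to 119708260, plus strand), the cytosolic synthase that makes HMG-CoA, read 9488, 9298 and 8986 in the Hetero samples, against 9563, 11387 and 9844 in the WT samples. The highest Hetero value and the lowest WT value nearly met, and WT sample 2 stood well above the other 5. Its log2 change was -0.15 ± 0.07 (SE), a Hetero/WT ratio of 0.904, 95% interval 0.813 to 1.006 (limma p = 0.0614, exact permutation p = 0.1). Without WT sample 2 the change was -0.07. Idi1 (ENSMUSG00000058258, chromosome 13, 8885501 to 8892451, plus strand), which isomerizes isopentenyl diphosphate, read 1601, 1625 and 1600 in the Hetero samples, against 1640, 1797 and 1516 in the WT samples. The 3 Hetero values lay close together and inside the WT range. The log2 change of Idi1 was -0.03, and the 95% interval of the ratio ran from 0.874 to 1.091.

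The next enzymes commit the pathway to sterols and close the ring. Fdft1 (ENSMUSG00000021273, chromosome 14, 63145150 to 63179578, minus strand), squalene synthase, read 2806, 2729 and 2710 in the Hetero samples, against 2632, 3207 and 2619 in the WT samples. WT sample 2 lay above all Hetero values and the other WT samples lay below them, so the fitted log2 change of -0.03 turned to 0.07 without WT sample 2. Sqle (ENSMUSG00000022351, chromosome 15, 59315077 to 59331192, plus strand), squalene epoxidase and a control point of the pathway, read 2047, 1840 and 1905 in the Hetero samples, against 2001, 2226 and 2001 in the WT samples. The groups overlapped through Hetero sample 1. Its log2 change was -0.10 ± 0.07 (SE), and the 95% interval of the ratio ran from 0.836 to 1.036. The change of Sqle was -0.05 without WT sample 2. Lss (ENSMUSG00000033105, chromosome 10, 76531588 to 76557138, plus strand), lanosterol synthase, read 1861, 1756 and 1437 in the Hetero samples, against 1710, 2277 and 1766 in the WT samples. It had the widest spread of the members, 1.58-fold between WT sample 2 at the top and Hetero sample 3 at the bottom, and the groups overlapped. The log2 change of Lss was -0.18 ± 0.13 (SE), with a ratio of 0.881 and a 95% interval of 0.718 to 1.081. It was -0.07 without Hetero sample 3 and -0.05 without WT sample 2.

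Cyp51 and Msmo1 act on lanosterol and its products. Cyp51 (ENSMUSG00000001467, chromosome 5, 4081145 to 4104746, minus strand), the lanosterol demethylase, read 2327, 2417 and 2356 in the Hetero samples, against 2478, 2470 and 2250 in the WT samples. It was the steadiest member, with 1.1-fold between its highest and lowest sample, and the only member whose highest value was in WT sample 1 and not in WT sample 2. The log2 change was -0.02 ± 0.06 (SE), and the 95% interval of the ratio ran from 0.899 to 1.084. Msmo1 (ENSMUSG00000031604, chromosome 8, 64718139 to 64733792, minus strand), a methylsterol monooxygenase, read 2395, 2313 and 2343 in the Hetero samples, against 2065, 2714 and 2186 in the WT samples. The Hetero values lay between WT sample 2 above and the other WT samples below. Its log2 change was 0.03 ± 0.09 (SE) and became 0.15 without WT sample 2, with a limma p of 0.0622 unadjusted and 1 adjusted.

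Srebf2 (ENSMUSG00000022463, chromosome 15, 82147181 to 82205379, plus strand), the regulator, read 7547, 7138 and 7459 in the Hetero samples, against 7390, 7996 and 7498 in the WT samples. The groups overlapped, and WT sample 2 was again highest, 1.07-fold above the median of the other 5. The log2 change was -0.05 ± 0.05 (SE), with a ratio of 0.968 and a 95% interval of 0.892 to 1.051, and the change was -0.01 without WT sample 2. SREBP-2 is governed largely by cleavage of its protein, which mRNA does not show.

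**Figure D1:**
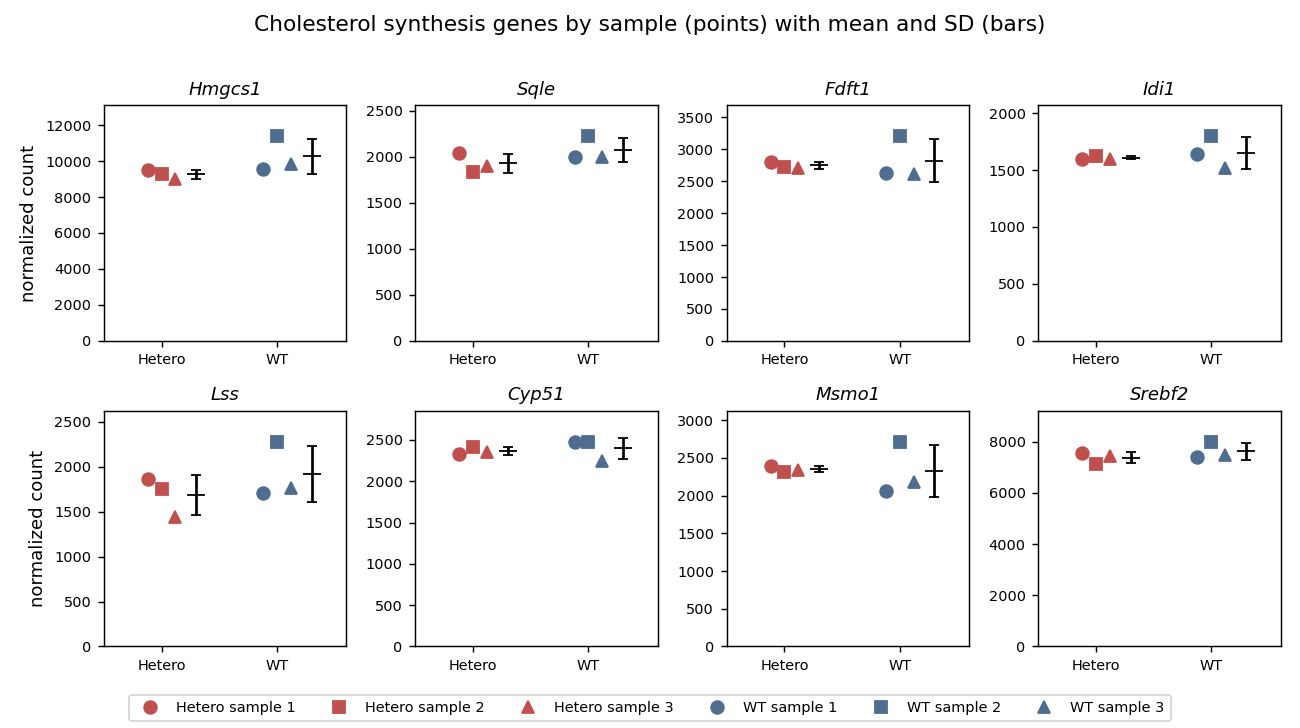
Normalized counts (y axis, from 0) of the 8 members in 3 Hetero samples (left, red) and 3 WT samples (right, blue); each point is a sample, its shape gives the sample number, and the bar is the mean ± SD. WT sample 2 is the highest point in 7 of 8 panels, and the Hetero values lie below all WT values only for Hmgcs1.

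Each 95% interval concerns the mean difference of 1 gene taken by itself. The 95% interval of the ratio of Hetero to WT lay between 0.718 and 1.181 for all 8 members, with Lss reaching lowest and Msmo1 highest. These limits come from 3 samples a group and rest on the spread between them, and single samples can differ by more.

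**Figure D2:**
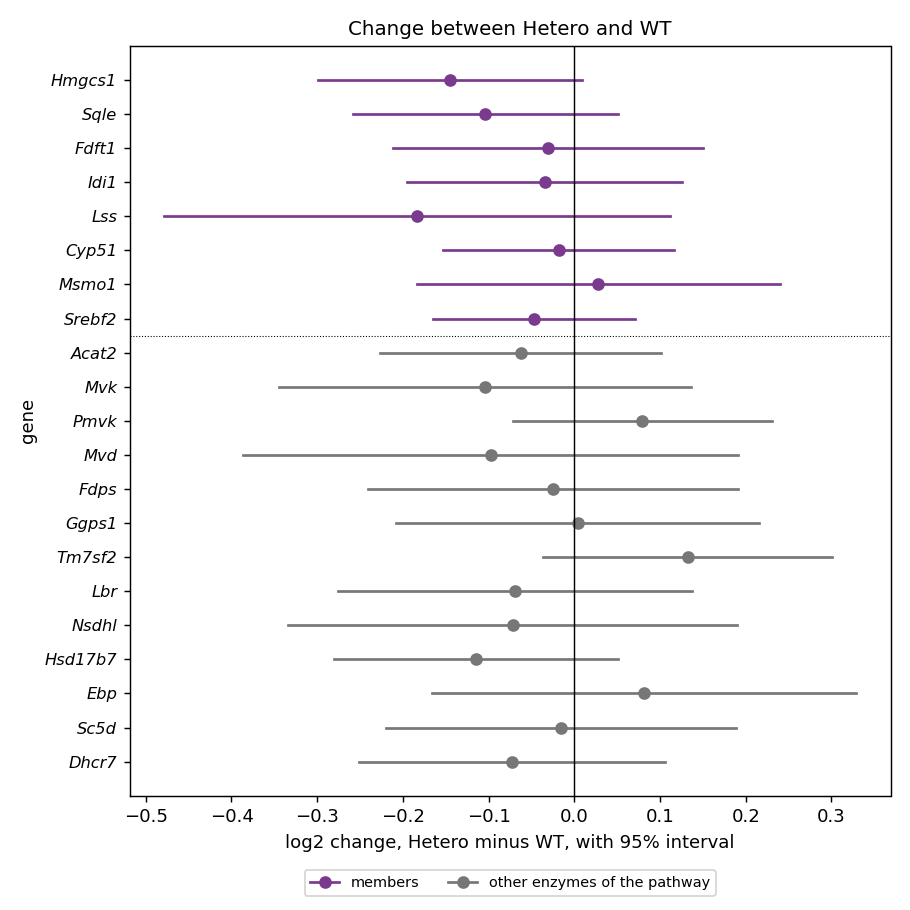
Log2 change, Hetero minus WT (x axis), for the 8 members (purple, above the dotted line) and 13 other tested enzymes of the pathway (grey); points are limma estimates and lines their 95% intervals. All 8 member intervals include 0, and so do those of the 13 other enzymes shown.

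All 28 pairs of members had a positive correlation over the 6 samples, and this rested on 1 library. The members' level, averaging over the 8 genes each log2 value after subtraction of the gene's own mean, was 0.01, -0.04 and -0.07 in Hetero samples 1 to 3, against -0.04, 0.18 and -0.04 in WT samples 1 to 3. WT sample 2 was above the gene's mean for 8 of 8 members and was the highest sample for 7 of 8, while it was highest for 15.1% of all tested genes. Its value stood 1.05-fold (Cyp51) to 1.3-fold (Lss) above the median of the other 5 samples. Over the 28 pairs Pearson's r had a median of 0.707 and a range of 0.136 to 0.944, beside a median of 0 over all pairs of tested genes, of which 7.48% reached 0.707. The median Spearman's rho was 0.457. Exact permutation over the 720 pairings gave an unadjusted p under 0.05 for 5 pairs by r and for 3 by rho. After Benjamini-Hochberg adjustment over the 28 pairs 0 passed by either measure, with a smallest adjusted p of 0.136 for r and 0.311 for rho.

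The highest r joined Sqle and Srebf2 (r = 0.944, exact permutation p = 0.00972, rho = 0.943), and r stayed at 0.831 without WT sample 2. Fdft1 and Msmo1 had r = 0.937 (exact permutation p = 0.00556, rho = 0.886), and 0.873 without WT sample 2. Idi1 and Cyp51 had r = 0.814 (exact permutation p = 0.0444, rho = 0.886), and 0.929 without that sample. These 3 pairs had an adjusted p of 0.136, 0.136 and 0.233 for r, and 0.311 each for rho. They are also the 3 highest of the 28 pairs without WT sample 2, so their height there is no finding. Other pairs of high r fell further without that sample: Hmgcs1 and Lss from 0.909 to 0.740, Hmgcs1 and Sqle from 0.885 to 0.628, and Fdft1 and Idi1 from 0.878 to 0.341. But for its pair with Idi1, Cyp51 was apart: the 7 pairs that include it had a median r of 0.319, against 0.747 for the other 21. When the 2 samples farthest from the median of the first gene were left out of each pair, which removed WT sample 2 from 26 of 28 pairs, the median r was 0.12 and 15 pairs were positive. Leaving out samples by the values that are correlated tends to lower r by itself, so this median is given as a value only. Without WT sample 2 alone, the median r was -0.04, 11 of 28 pairs were positive, and 52.1% of all gene pairs reached the members' median. With each gene's group means removed, over all 6 samples and so with WT sample 2 included, the median r was 0.785.

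**Figure D3:**
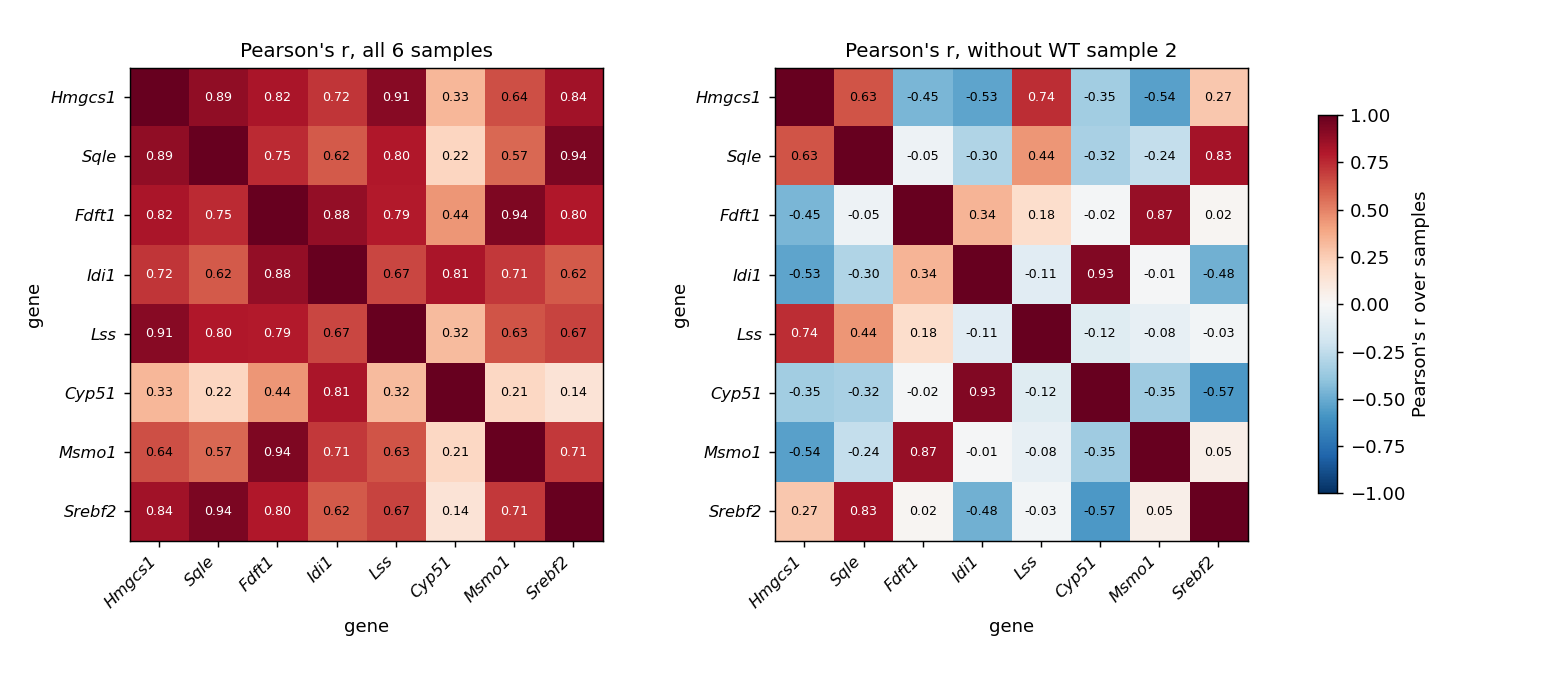
Pearson's r of log2(normalized count + 1) for each pair of members, over all 6 samples (left) and over the 5 samples without WT sample 2 (right); colour runs from -1 to 1. All pairs are positive on the left, while 11 of 28 are positive on the right.

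None of the other listed enzymes of the pathway passed the test. Of 14 listed, 13 were tested and Idi2 was too low. In limma 0 passed at an adjusted p under 0.05 and 0 had an unadjusted p under 0.05. Fitted values were lower in Hetero for 9 and higher for 4, with a median log2 change of -0.06. Without WT sample 2 they split into 6 lower and 7 higher, with a median of 0.01. WT sample 2 was highest for 8 of the 13, and the list's level there was 0.10, against -0.04 to 0.04 in the other 5 samples. The highest correlation with the members' level in this list belonged to Nsdhl, a sterol dehydrogenase (r = 0.952, rank 20 of 14969 genes), and to Fdps, farnesyl diphosphate synthase (r = 0.771); both were named after their values were seen. These r were 0.701 for Nsdhl and 0.302 for Fdps without WT sample 2. Over the 6 samples r of the 13 tested enzymes ran down to -0.571, for Pmvk, and was positive for 10 of them.

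Tm7sf2, a sterol reductase, had the smallest p of these enzymes and read 753 ± 22.6 in Hetero and 687 ± 39.5 in WT (SD, n = 3 each). Its log2 change was 0.13, with a limma p of 0.111 unadjusted and 1 adjusted over all tested genes. Pmvk, phosphomevalonate kinase, read 915 ± 37.7 in Hetero and 865 ± 15.9 in WT (SD, n = 3 each). The groups of Tm7sf2 and Pmvk, 2 of the 13 tested enzymes of this list, did not overlap, with Hetero above WT. Over all tested genes 4.4% were separated in that direction, and neither gene passed. Hsd17b7 had a log2 change of -0.11 and Dhcr7, the reductase of a last step, of -0.07.

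**Figure D4:**
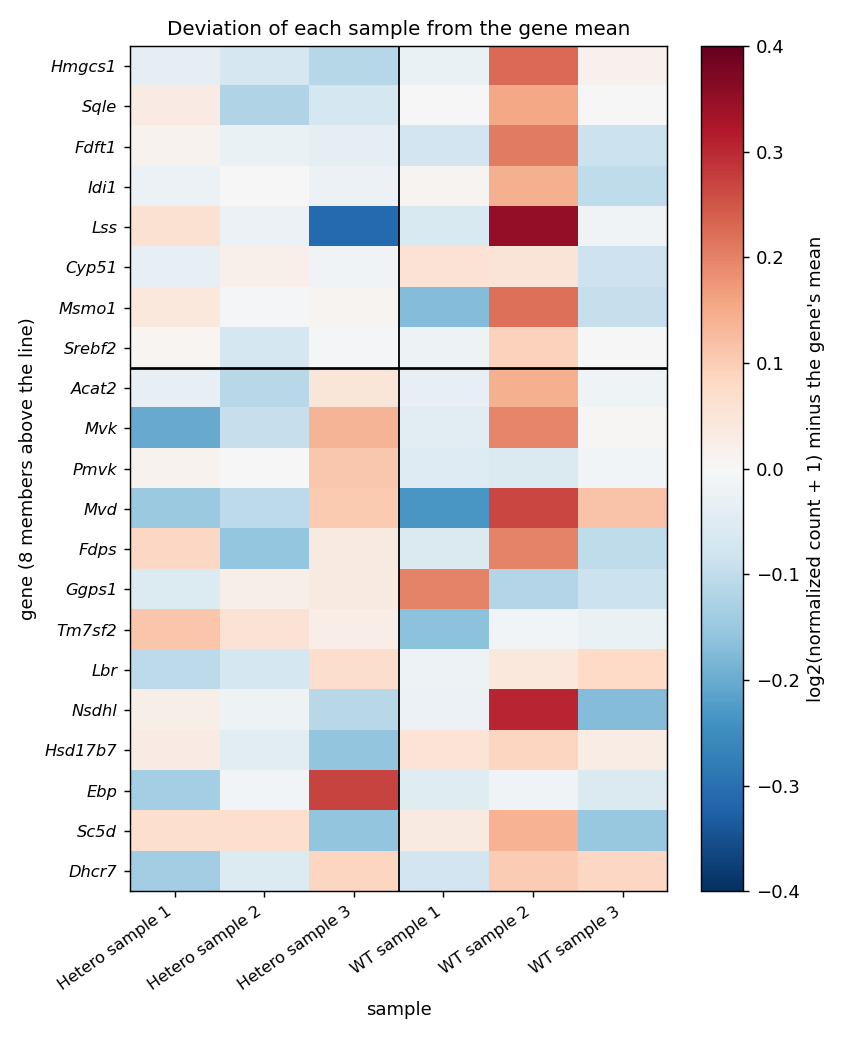
Deviation of each sample from the gene's mean in log2(normalized count + 1) (colour), for the 8 members above the line and 13 other tested enzymes below it; columns are the Hetero samples (left) and the WT samples (right). The column of WT sample 2 is red for 8 of 8 members, and WT sample 2 is the highest sample in 8 of the 13 rows below.

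Regulators of SREBP, sterol transport, efflux and fatty acid synthesis were set beside the members, and 0 genes of these 4 lists passed. Of the 10 tested genes of the SREBP list, Srebf1 and genes that process SREBP or retain it, 6 had lower fitted values, with a median log2 change of -0.0063. Insig2, a retention protein, differed by -0.16, Srebf1 by -0.08, Rnf139 by 0.04, and Insig1, a sterol-responsive retention protein, by -0.03. Of the 12 genes of uptake and transport, 9 were lower, with a median of -0.02. Stard4, a cholesterol carrier, had a log2 change of -0.21 and a limma p of 0.042 unadjusted and 1 adjusted. Lrp1, a lipoprotein receptor, differed by 0.11 and Scarb1, a scavenger receptor, by -0.09.

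Of the 11 genes of efflux, turnover and LXR signalling, 5 were lower and 6 higher, with a median log2 change of 0.0052. Apoe, the apolipoprotein of astrocytes, read 29007 ± 4037 in Hetero and 28773 ± 2145 in WT, and Cyp46a1, the neuronal hydroxylase that clears brain cholesterol, 8209 ± 395 in Hetero and 7949 ± 202 in WT (SD, n = 3 each). Mylip, an LXR target, differed by -0.11 and the exporter Abcg1 by 0.06. Of the 12 fatty acid synthesis genes, 5 were lower and 7 higher, with a median of 0.0052. Acacb, an acetyl-CoA carboxylase, read 136 ± 34.9 in Hetero and 206 ± 27.0 in WT (SD, n = 3 each), with a log2 change of -0.62 and a limma p of 0.0111 unadjusted and 1 adjusted. Its groups did not overlap, with Hetero lower, where 4.32% of all tested genes were so separated. Scd1, a desaturase, differed by 0.13 and Acaca, the other carboxylase, by -0.15.

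The protein-coding genes whose pattern was most like the members' level over the 6 samples were Sycp2 (r = 0.991), Caskin1 (r = 0.989), Acly (r = 0.986), Tnfsf12 (r = 0.984) and Kif17 (r = 0.974). These are the highest of 14969 values of r over 6 samples, so their height is no finding. Acly, which makes cytosolic acetyl-CoA, the starting material of sterols and fatty acids, read 4966, 4755 and 4620 in the Hetero samples, against 4800, 5404 and 4709 in the WT samples. Without WT sample 2, over 5 samples that also entered the choice of these genes, r was 0.987 for Acly, 0.91 for Sycp2, 0.874 for Caskin1, 0.779 for Tnfsf12 and 0.866 for Kif17. The list medians of r with the members' level were 0.861 for the members themselves, which make up that level, 0.423 for the other enzymes, 0.278 for uptake and transport, 0.227 for fatty acid synthesis, -0.179 for the SREBP regulators and -0.29 for efflux, beside 0.021 over all tested genes. Over the 5 samples without WT sample 2 these medians were 0.322 for the members, -0.45 for the other enzymes, 0.12 for uptake and transport, 0.433 for fatty acid synthesis, -0.164 for the SREBP regulators and -0.428 for efflux.

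Levels of cell type markers were set beside the members' level, which was 0.18 in WT sample 2. In bulk tissue fewer cells of a type and less RNA per cell cannot be told apart. Myelin and oligodendrocyte markers were highest in WT sample 3 (level 0.35) and lowest in WT sample 1 (-0.29), with WT sample 2 at 0.06. WT sample 2 was the highest sample for 0 of these 12 markers. Their summed level was 103420 to 135346 in Hetero and 97820 to 157285 in WT, and none was at 0. Over all tested genes 3.83% had an unadjusted limma p under 0.05. The groups did not overlap with Hetero lower for 4.32% of all tested genes and with Hetero higher for 4.4%. Fitted values of the precursor markers lay below WT in Hetero for 8 of 8, with a median log2 change of -0.24. Of these 8 markers 0 passed the threshold, 4 had an unadjusted p under 0.05 and 4 did not overlap between the groups. Their summed level was 8016 to 9486 in Hetero and 9558 to 11357 in WT, and their level in WT sample 2 was 0.06. Mitochondrially encoded messages were lower in Hetero for 9 of 9 fitted values, with a median log2 change of -0.10; 0 passed, 6 had an unadjusted p under 0.05 and 5 did not overlap. Their summed level was 2435490 to 2507830 in Hetero and 2602810 to 2803700 in WT. Meningeal markers had higher fitted values in Hetero for 5 of 6, with a median log2 change of 0.28, 0 past the threshold and 1 with an unadjusted p under 0.05. Their summed level overlapped between the groups, at 2360 to 3024 in Hetero and 1804 to 3032 in WT. Their level was highest in WT sample 1 (0.39) and lowest in WT sample 3 (-0.52). Astrocyte markers had their highest level in WT sample 2, at 0.07, close to 0.05 in Hetero sample 3 and 0.04 in WT sample 3. WT sample 2 was highest for 2 of the 8 astrocyte markers, whose summed level was 173052 to 185616 in Hetero and 178971 to 202062 in WT. Fitted values were lower in Hetero for 6 of these 8, with 2 unadjusted p under 0.05 and 1 marker not overlapping. Microglia markers were lower for 6 of 6, with a median log2 change of -0.09, 0 unadjusted p under 0.05 and 0 not overlapping. Neuron markers were lower for 4 of 8, with 3 unadjusted p under 0.05 and 2 not overlapping in each direction. In WT sample 2 the neuron level was 0.01, the microglia level 0.04, the endothelial level -0.12, the meningeal level -0.40, the choroid plexus level 0.14 on 2 tested genes, and the level of mitochondrially encoded messages 0.02. The part of astrocyte content and of read depth in the high values of WT sample 2, and of these marker differences in the changes between Hetero and WT, was not tested.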

How the data were processed

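Libraries were stranded poly(A) mRNA, per the labels' protocols. The deposited values are the authors' normalized counts for each gene, a signal that is not whole and never negative. Per the submitters' processing notes, DESeq2 1.19.11, Salmon 0.11.2, R 3.6.0 and the build GRCm38 were used, with no step stated; the annotation and any filters are not stated. In each sample 1 spacing, tolerance 0.02, accounted for 15.5% to 28.1% of the values below 60 as whole reads, too few to recover reads, so no count test was run. Estimated reads are the column total over that spacing.

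Genes were named from GENCODE M21. Values were tested as log2(value + 1) for genes with a mean of at least 10, with limma 3.58.1 in R 4.3.3 (trend, robust, two-sided, Benjamini-Hochberg over all tested genes, threshold 0.05), a procedure tested on simulated data. Correlations used Python 3.11.15 and SciPy 1.17.1. Groups came from the titles, which give no batch. Same-numbered samples deviated with r = -0.00503, 0.00436 and 0.227 across genes. The last, for the third samples, was the highest r of any Hetero sample with any WT sample. The labels do not say that the numbers pair samples, so the main fit used no pairing. A shared origin of the third samples was not tested. Named genes were the members, Cyfip2, the 3 smallest p of each list with 5 fixed genes, and the 5 most similar genes, beside Nsdhl, Fdps and markers chosen after values were seen. Members and lists were chosen with earlier results of these data known. Further genes of the pathway lists are not reported here and stand in no list count. Reads shared between members and their pseudogenes were not tested. Alternatives changed the variance model, scaling, filter, pseudocount, replicate block and samples.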

Additional observations from a re-analysis of the deposited data

How the results depend on the processing

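Across all alternatives 0 members and 0 genes of the pathway lists passed, and of the 56 member changes from fits that left out samples 49 kept their direction; the variance model, filter and block leave a member's change as it is by construction. The number of genes called over the whole table was 0, but 2 with the replicate block, 4 without the third sample of both groups and 0 to 1 when leaving out 1 sample; Cyfip2 had a limma adjusted p of 0.0016 with the block and 0.0139 without the third samples, and 0.0016 to 1 over all alternatives. Members whose groups did not overlap numbered 1, but 3 without the third sample of both groups, where 31.3% of all tested genes were separated, and 1 to 3 when leaving out 1 sample: 3 without WT sample 3 (16.6% of all), 2 without Hetero sample 1 (17.2%) and 3 without WT sample 2. Those 3 were Hmgcs1, lower in Hetero, and Fdft1 and Msmo1, higher, where 16.2% of all tested genes were separated. The median pairwise r of the members ran from -0.037 (without WT sample 2) to 0.797 when leaving out 1 sample. The log2 change ran from -0.064 to 0.0056 for Cyp51, from -0.051 to 0.15 for Msmo1, from -0.080 to 0.066 for Fdft1 and from -0.094 to 0.028 for Idi1 when leaving out 1 sample, and it was -0.0083 for Msmo1 without the third sample of both groups. Fits without 1 sample assume that the smaller group varies like the other. Scaling and pseudocount turned no member's direction. The shallower libraries, WT samples 2 and 3 and Hetero sample 1, carry more counting error at the same value.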
